A study of Homo sapiens with 2 samples.

Results

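The distal end of the short arm of human chromosome 1 held 433 of the 17659 MYC peaks called in TET21 cells. The peaks were chosen by position alone: summit on chromosome 1 below 36 Mb (GRCh37). Chromosome 1 had 1864 peaks in all, and the 456 with a summit from 36 to 117 Mb served for comparison. That stretch is called the rest of the short arm here, although the innermost part of the arm, beyond 117 Mb, was in neither stretch. The outer part of the window is band 1p36. Its inner part reaches into the neighbouring bands 1p35 and 1p34, so the window is called distal 1p here. TET21 (SH-EP/TET21/N) is a neuroblastoma cell line derived from SH-EP, in which doxycycline shuts off a MYCN transgene. For this experiment the cells ectopically expressed full-length MYC, were kept in doxycycline at 1 µg/mL for 7 days, and were fixed with formaldehyde at 1% for 10 min. There was 1 ChIP library, made with a rabbit polyclonal antibody to MYC (2 µg), and 1 input library, both from these cells, and the labels name no cells without ectopic MYC.

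MYC is a transcription factor that pairs with MAX and prefers the E-box CACGTG, mostly in the open promoters of active genes. In neuroblastoma the related protein MYCN often drives growth, and tumours with MYCN amplification frequently lose distal 1p. The arm end is therefore known for its candidate tumour suppressors, among them the chromatin remodeller CHD5, the zinc finger protein CASZ1 and the kinesin KIF1B. The gene table at hand is on another build (GRCh38.p14), so no peak was assigned to a gene, and no sequence of the peaks' own build was read. The peaks are given by position.

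MYC peaks were dense on distal 1p. The 433 peaks amounted to 12.03 per Mb (95% Poisson interval 10.92 to 13.22), against 5.63 per Mb (5.125 to 6.171) on the rest of the short arm. The ratio was 2.14 (exact 95% interval 1.87 to 2.44), which covers counting error only and takes peaks as independent. There was no replicate, so no test between libraries was possible, and the number of genes in each stretch was not counted. With 2.45% of the peaks of the list and 23.2% of those of chromosome 1, distal 1p ranked 2 among the first 36 Mb of the 18 chromosomes whose first peak lies within 5 Mb of their start. Chromosome 19 had 580 peaks in that length, chromosome 17 had 413 and chromosome 16 had 406. The 95% Poisson intervals of chromosomes 17 (10.39 to 12.63 per Mb) and 16 (10.21 to 12.43) overlapped that of distal 1p. Each length was taken as a full 36 Mb, with no correction for parts that cannot be mapped. The first 36 Mb of the other 17 chromosomes held a median of 210 peaks.

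The higher density held over most of the window. Of 36 windows of 1 Mb, 23 (63.9%) held 10 or more peaks, against 18 of 81 (22.2%) on the rest of the arm. The median window held 12.5 peaks on distal 1p and 4 on the rest of the arm. Windows with no peak were about as frequent in both, 6 of 36 (16.7%) and 16 of 81 (19.8%). The variance of the counts was 5.62 times their mean on distal 1p and 5.67 times on the rest, where the mean was lower. The fullest window, 16 to 17 Mb, held 30 peaks, followed by 28 to 29 Mb with 27, 6 to 7 Mb with 26 and 1 to 2 Mb with 23. The 5 fullest windows together held 126 peaks (29.1%).

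**Figure D1:**
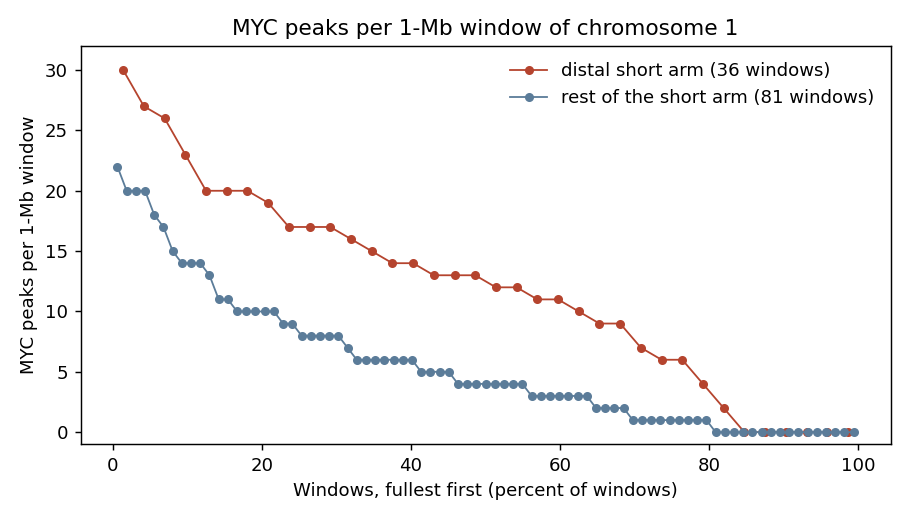
MYC peaks in each 1-Mb window of chromosome 1 (vertical axis), with the windows ordered from fullest to emptiest and placed by percent of windows (horizontal axis), for distal 1p (36 windows, red) and the rest of the short arm (81 windows, blue). The red points lie above the blue ones except among the windows with no peak, from 30 against 22 peaks in the fullest window to a median of 12.5 against 4.

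Stretches without a called site lay between the filled windows. The longest ran for 2.23 Mb, from 3818132 to 6052554, between a group of 3 peaks and the dense stretch around 6 to 7 Mb. The next 3 ran for 1.61 Mb from 29562913, for 1.47 Mb from 33850216 and for 1.35 Mb from 12679325. In all, 6 gaps exceeded 1 Mb in the 36 Mb of distal 1p, against 13 in the 81 Mb of the rest of the arm. The longest there was 6.99 Mb. An empty stretch means that no site passed the caller's threshold. Whether it could be mapped was not tested.

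Along the window, density varied with no steady trend from the end of the chromosome inward. The outermost 6 Mb held 11.17 peaks per Mb, and the stretches from 6 to 12, 12 to 18 and 18 to 24 Mb held 15.0, 11.33 and 8.67. The stretch from 24 to 30 Mb was the densest at 17 (95% Poisson interval 13.9 to 20.6), and that from 30 to 36 Mb held 9.0 (6.76 to 11.7). These last intervals did not overlap, but they cover counting error only and take peaks as independent. The counts of 1-Mb windows had a variance 5.62 times their mean, and the first of these stretches was picked as the densest. The difference was not tested. The share of peaks with a fold over the local background of at least 10 did not follow the same order. It was 12.7% (13 of 102) in the densest stretch and 22.2% (12 of 54) in the innermost one, against 15.4% of all peaks. By number, the stretches from 6 to 12 and from 24 to 30 Mb held the most such peaks, 15 and 13. The others held 9 to 12. Differences in these shares were not tested.

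**Figure D2:**
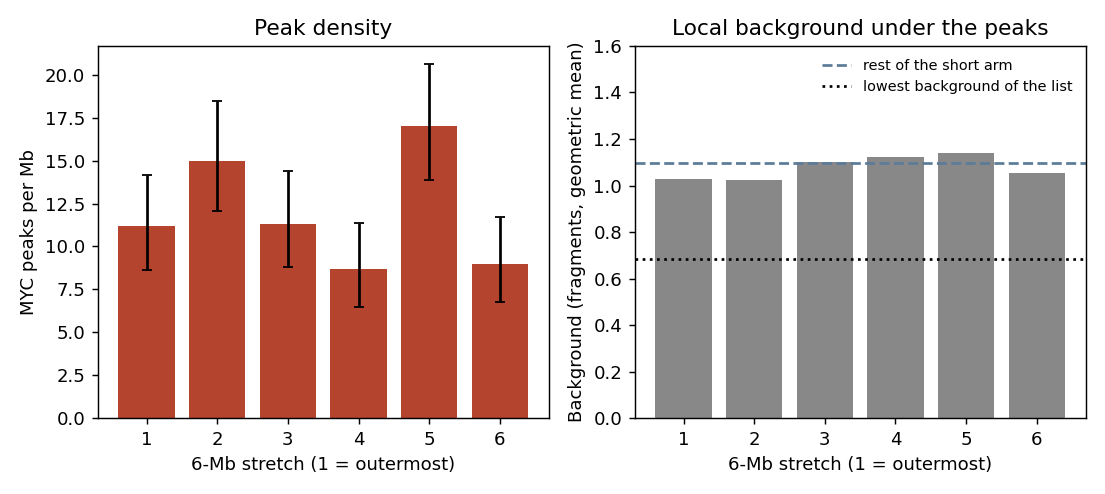
Left: MYC peaks per Mb in 6 stretches of 6 Mb, numbered from the end of chromosome 1 inward, with 95% Poisson intervals as error bars. Right: geometric mean of the local background under the peaks of each stretch, in fragments, with the mean of the rest of the short arm (dashed) and the lowest background of the list (dotted). Density ranged from 8.67 to 17, while the background stayed between 1.02 and 1.14.

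Although sites were more frequent, their fold over background had the same median as on the rest of the arm. The fold is the authors' value for the enrichment at the summit. Its median was 6.47 on distal 1p (95% interval of the median from order statistics 6.16 to 6.71) and also 6.47 on the rest of the arm (6.12 to 6.71), with 6.4 for the whole list. The quartiles were 5.17 and 8.44 on distal 1p and 5.17 and 8.48 on the rest. Of the 433 peaks, 70 had a fold of at least 10 (16.2%, Wilson 95% interval 13 to 19.9), against 77 of 456 on the rest of the arm (16.9%) and 15.4% of all peaks. The share on distal 1p was thus near that of the list. At least 20 was reached at 4 peaks (0.924%, 0.36 to 2.35), against 6 of 456 (1.32%) and 1.43% of all peaks.

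The pileup counts the ChIP fragments that cover the summit and was recovered from the fold and the −log10 p. Its median was 13 fragments on both stretches, with quartiles of 10 and 17 on both. A pileup of 40 or more was found at 12 peaks of distal 1p (2.77%), against 2.19% on the rest of the arm and 2.22% of all peaks. Among the 500 most significant peaks of the list 15 were on distal 1p (3%, Wilson interval 1.83 to 4.89), an interval that includes its 2.45% of all peaks. Among the top 100 there were 3 by significance and 4 by fold.

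The most significant sites of distal 1p were spread from 8 to 34 Mb. Of the 15 most significant, 9 had summits between 26 and 34 Mb, 6 of them between 31 and 34 Mb, and none lay in the outermost 8 Mb. Of all 433 peaks, 118 (27.3%) lay between 26 and 34 Mb and 97 (22.4%) in the outermost 8 Mb. These bounds were set after the positions were seen. The most significant peak was chr1:29211512-29211872, with a pileup of 70 fragments (95% Poisson interval 54.6 to 88.4) against an expected 1.12. Its fold was 33.4, and its −log10 p was 98.8. It ranked 21 in the whole list by significance and stood alone, 28805 bp from the nearest other peak. Its 1-Mb window, 29 to 30 Mb, held 7 peaks, of which 3 had a fold of 10 or more. The neighbouring window from 28 to 29 Mb held 27 peaks, of which 1 did. Of these neighbouring windows, the fuller one held fewer strong sites.

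The highest fold, 34.2, was at chr1:8938015-8939075, where 65 fragments (50.2 to 82.8) lay over a background of 0.928. This peak was 1061 bp wide with its summit 151 bp from the start, so the bound stretch extended mostly to 1 side. A second strong peak, chr1:8939178-8939530, followed after 102 bp, with a pileup of 34 (23.5 to 47.5) and a fold of 19.2. The summits were 1149 bp apart. This was the only pair joined within 1 kb on distal 1p in which both peaks were among its 15 most significant.

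At rank 3 by significance was chr1:11120085-11120481, with a pileup of 62 (47.5 to 79.5) and a fold of 27.2. At rank 4, chr1:31628130-31628555, rested on 43 fragments (31.1 to 57.9) over a background of only 0.768, which gave a fold of 24.9. These 4 were the only peaks of distal 1p with a fold of 20 or more. The Poisson intervals of all 4 pileups overlapped, and differences between these pileups were not tested.

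The other sites among the 15 had folds from 13.2 to 19.4 and pileups from 32 to 47. Those between 31 and 34 Mb were chr1:31538196-31538743 (fold 18.0), chr1:32404010-32404335 (13.2), chr1:32420259-32420577 (16.8), chr1:32645421-32645717 (19.3) and chr1:33282808-33283118 (17.7), besides the site with a fold of 24.9. The lowest fold of the 15, at chr1:32404010-32404335, came with the pileup that ranked 4 among all 433, 47, over a background of 2.64. By fold it ranked 29 among the 433. Between 23 and 24 Mb lay chr1:23670309-23671414 (fold 18.5), at 1106 bp the widest peak of distal 1p, and chr1:23881237-23881774 (17.5). The remaining ones were chr1:17560290-17560580 (18.7), chr1:27438608-27438986 (19.4) and chr1:28969575-28969980 (16.8). In the outermost 8 Mb the strongest were chr1:3817802-3818131 with a fold of 16.3 and a pileup of 29, and chr1:1243558-1244221 with 15.7 and 28.

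**Figure D3:**
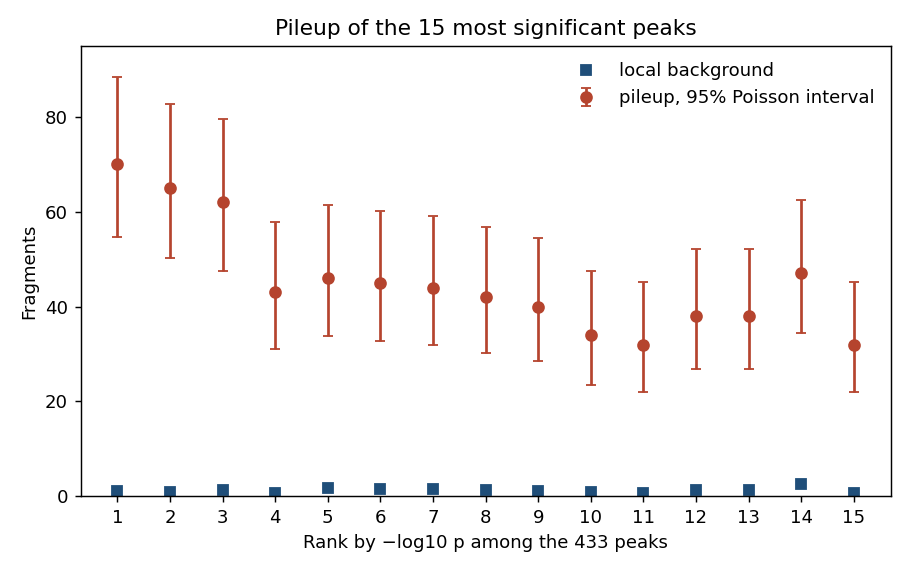
Pileup in ChIP fragments (red, with 95% Poisson intervals as bars) and local background in fragments (blue squares) of the 15 most significant peaks of distal 1p, ordered by −log10 p. The first 3 peaks had pileups of 62 to 70, the others 32 to 47, and no background exceeded 2.64.

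Close neighbours were about as frequent on distal 1p as in the whole list. Another peak lay within 1 kb of 128 of the 433 (29.6%, Wilson interval 25.5 to 34), against 159 of 456 on the rest of the arm (34.9%, 30.6 to 39.4) and 32.8% of all peaks. The intervals of the 2 stretches overlapped. At long range the stretches differed more: 13 peaks of distal 1p (3%, 1.76 to 5.07) had no other peak within 100 kb, against 76 on the rest of the arm (16.7%, 13.5 to 20.4) and 12.8% of all peaks. A higher density by itself leaves fewer isolated peaks. When peaks up to 1 kb apart were merged, 362 bound regions remained on distal 1p, 305 with a single peak, 44 with 2 and 13 with at least 3.

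Regions of several peaks contained stronger best peaks. The median best fold was 6.38 in regions of 1 peak, 8.23 in regions of 2 and 10.9 in regions of 3 or more. A best peak of fold 10 or more was found in 49 of the 305 single peaks (16.1%), in 12 of the 44 pairs (27.3%) and in 8 of the 13 larger regions (61.5%). The best of several peaks is higher by construction, and the rest of the arm gave about the same medians, 6.51, 8.14 and 11.2. The 13 larger regions were from 924 to 2761 bp long.

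In the 3 regions of 3 or more peaks with the highest best fold, 1 peak had a fold above 10 and its companions did not. At chr1:26826691-26827635 a peak of fold 17.7 had neighbours of 6.71 and 6.86, all within 945 bp. At chr1:23881237-23883436 a peak of 17.5 was followed by peaks of 3.69 and 4.31, and at chr1:3816565-3818131 a peak of 16.3 was preceded by peaks of 6.86 and 8.14. The strong site of fold 27.2 had a companion of 9.56 with its summit 755 bp away.

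The group with the most peaks held none with a fold of 10 or more. It lay at chr1:28832333-28834072, with 4 peaks of folds 4.33, 7.33, 5.4 and 6.49 and pileups of 9 to 16 fragments. It belonged to the fullest 20 kb of distal 1p, where 9 peaks lay within 13.3 kb, from 28832333 to 28845633. Their folds ranged from 4.33 to 9.93 and their pileups from 9 to 19. The fullest 20 kb on the rest of the arm held 6 peaks, with folds of 3.36 to 10.1.

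**Figure D4:**
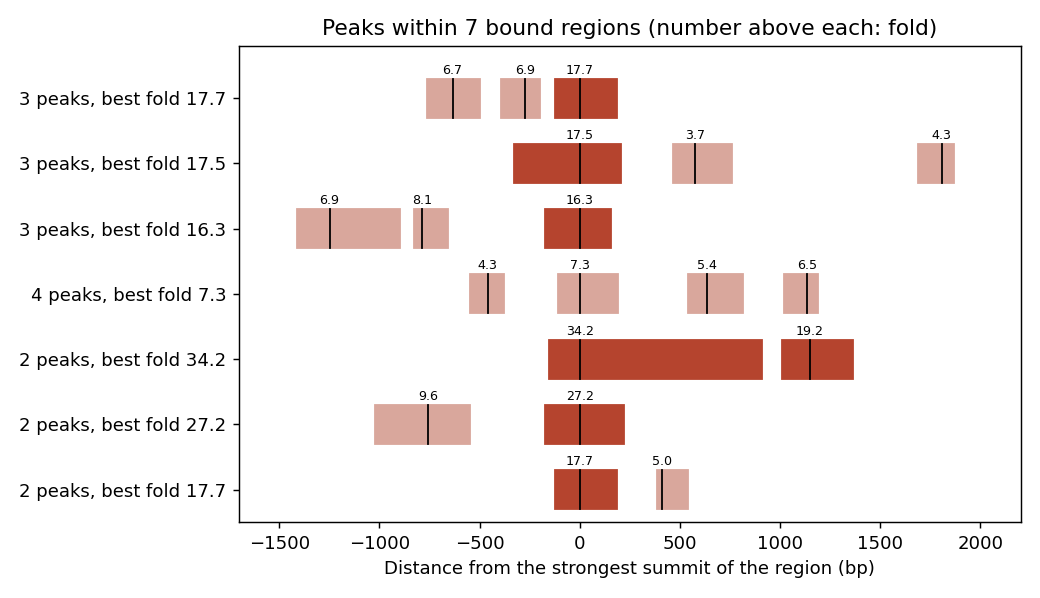
Peaks (boxes) and summits (black lines) in 7 bound regions of distal 1p, placed by distance in bp from the strongest summit, with the fold above each peak. The regions are the 3 with the highest best fold among those of 3 or more peaks, the only one of 4 peaks, and the 3 pairs with the highest best fold; dark boxes mark a fold of 10 or more, and the second peak reached it in 1 of the 7 regions, the pair of 34.2 and 19.2.

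The width of the peaks had a median of 228 bp and quartiles of 170 and 311 bp, close to the 235, 171 and 315 bp of the rest of the arm. The narrowest width in the list, 142 bp, was that of 43 peaks (9.93%, against 9.21% of all peaks). Widths over 500 bp were found at 25 peaks (5.77%, 3.94 to 8.38), against 7.46% on the rest of the arm and 6.82% of all peaks. The wide peaks had a median fold of 10.8 and a median pileup of 20, against 6.29 and 12 for the others. The summit lay in the first or last 33.3% of the peak's length in 18 of the 25 wide peaks (72%), and in 134 of the 408 narrower ones (32.8%). The rest of the arm gave 67.6% and 32%, so these shares were not a trait of distal 1p. Summits placed evenly along the peaks would give 66.7%, near the share of the wide peaks. The widest peak, at 23670309, had its summit 901 bp into its 1106 bp.

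The local background, the number of fragments expected at the summit without enrichment, is read here as the peak caller's estimate from the input library. On distal 1p its median was 0.984 fragments (0.937 to 1.03), against 1.03 (0.937 to 1.12) on the rest of the arm, and the geometric means were 1.08 and 1.1, a ratio of 0.980. Over the first 36 Mb of the other 17 chromosomes the geometric mean ranged from 0.989 to 1.4, with a median of 1.06, and distal 1p ranked 7 of 18. The value of 1.4 was that of chromosome 7, and the next highest was 1.12, on chromosome 17. The lowest background that the caller used, 0.683, was that of 48 peaks (11.1%, 8.46 to 14.4), against 43 of 456 on the rest of the arm (9.43%) and 9.97% of all peaks. The background under the peaks of distal 1p was therefore within the range of the first 36 Mb of the other 17 chromosomes. Since the caller puts no background below 0.683 and takes the largest of several local estimates, a lower input coverage would show only in part, and the copy number of distal 1p in these cells was not measured.

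Within the window the geometric mean background was 1.03 in the outermost 6 Mb, 1.02 from 6 to 12 Mb, 1.1 from 12 to 18 Mb, 1.12 from 18 to 24 Mb, 1.14 from 24 to 30 Mb and 1.05 from 30 to 36 Mb. In the same order, the share of peaks at the lowest background was 17.9, 14.4, 7.35, 13.5, 6.86 and 7.41%, against 9.97% of all peaks. These shares rest on 12, 13, 5, 7, 7 and 4 peaks, and differences between stretches were not tested. How sites were called depended on the background. The weakest peak called at the lowest background had 6 fragments and a fold of 4.16, while at a background of 2.64, found at 15 peaks, the weakest had 12 fragments and a fold of 3.57.

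A background above 2.5 fragments was found at 23 peaks of distal 1p (5.31%, against 5.53% of all peaks). The 3 highest stood within 100 kb of each other. Between 16.9 and 17 Mb, in the fullest 1-Mb window, 4 peaks had backgrounds of 3.0 to 5.28, with a geometric mean 3.76 times that of the other members. These bounds were picked as the 100-kb bin with the highest background, so a raised ratio follows from the choice. The peak chr1:16939633-16940077 had 25 fragments over 5.28, a fold of 4.14, and chr1:16940261-16940557 had 47 fragments (34.5 to 62.5) over 4.69, a fold of 8.44. The peaks chr1:16947508-16947795 and chr1:16971118-16971385 had folds of 6.00 and 7.39. By pileup, chr1:16940261-16940557 ranked 4 among the 433, and by fold it ranked 109. The cause of the high background there was not tested.

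**Figure D5:**
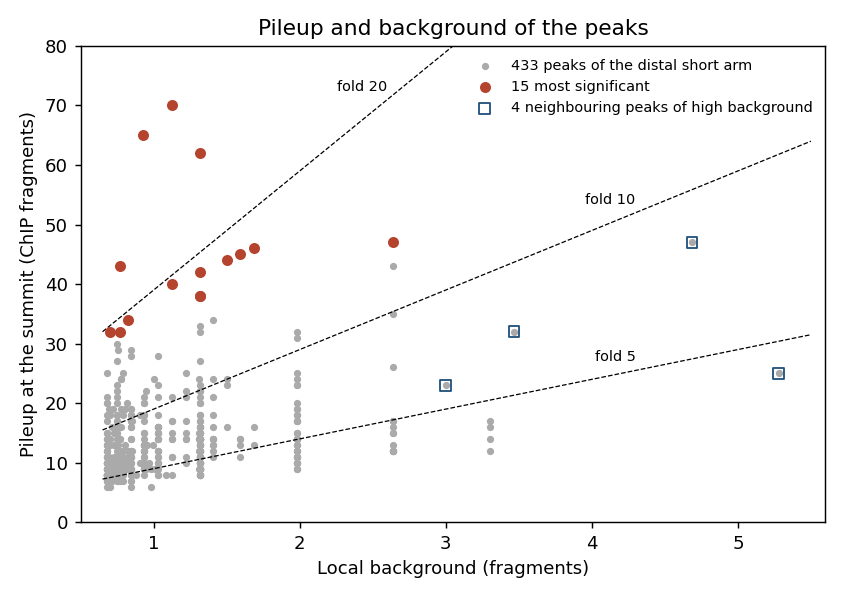
Pileup at the summit against local background, both in fragments, for the 433 peaks of distal 1p (grey), with the 15 most significant in red and the 4 peaks between 16.9 and 17 Mb as blue squares; dashed lines mark folds of 5, 10 and 20. The 4 squares lie at backgrounds of 3.0 to 5.28 and below a fold of 10, and 4 red points lie above the line of fold 20.

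The boundary at 36 Mb fell between called sites. The last peaks inside it, with summits at 35734658 and 35914224, had folds of 8.19 and 9.15, and the first outside it, with summits at 36023391 and 36107194, had folds of 15.2 and 7.87. The least significant peak of distal 1p, chr1:35658286-35658427, rested on 6 fragments (2.2 to 13.1); its fold was 3.53 and its −log10 p 4.12.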

How the data were processed

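The file analysed is the authors' peak list for the 1 ChIP library, in narrowPeak layout. No value of the input library was used except through the background. Per the submitters' processing notes the build was GRCh37; the tools listed there, without roles, include MACS2 2.1.0, STAR 2.5.2a, Picard 2.7.1 and SAMtools 1.3. The authors deposited a score (10 times the −log10 q, rounded down), a fold (ratio) over the local background, −log10 p, −log10 q and the summit's distance in bp from the start, a number in another unit. The filter named in the list is not given in the sources used here. Coordinates are GRCh37, 1-based. Pileup and background were recovered from fold = (pileup + 1) / (background + 1) and the Poisson tail above the pileup. For 100.0% of peaks a whole number of fragments gave the deposited −log10 p within 0.001. The procedure was also checked on simulated data, whose backgrounds did not reach down to 0.683 or up to the list's highest, 83.8. The library's depth is otherwise unknown. Intervals are at 95% and cover counting error or the spread among peaks of 1 library. Reads carried no molecular identifiers, so fragments need not be independent. Python 3.11.15, SciPy 1.17.1 and pandas 2.3.3 were used. The named peaks are the 15 with the highest −log10 p, and others named were chosen after their values were seen. The window and the lists were chosen with earlier results of these data known. Of 8 results planned, 4 needed a GRCh37 annotation or sequence (start sites, promoters, genes, E-boxes) and were not computed, nor were the gene lists used.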

Additional observations from a re-analysis of the deposited data

How the results depend on the processing

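Of 47 alternatives over 9 results, 29 left a count within 1.5 times or a value within its 95% interval, and 18 moved it. No paired analysis was possible because there was 1 ChIP and 1 input library, and no replicate could be left out. The density of distal 1p over the rest of the arm stayed between 2.02 and 2.24 under all 6 of its alternatives, including window ends at 28 and 30 Mb and, chosen after seeing the data, leaving out 16 to 17 Mb (2.04). The ratio of backgrounds stayed between 0.917 and 0.980 under its 5 alternatives, and was 0.936 without the 4 peaks between 16.9 and 17 Mb, left out after seeing the data. Keeping peaks at or above the list's median and upper quartile of −log10 p left 216 and 108 peaks (6.0 and 3.0 per Mb), and joining peaks within 1 kb gave 10.06 per Mb; both use fewer peaks by construction. The same thresholds gave median folds of 8.46 and 10.85, pileups of 17 and 21.5, widths of 282.5 and 319 bp and, for the upper quartile, a background of 0.932. The strongest peak of each region joined within 20 kb had a median fold of 7.08 and width of 250 bp. The share of peaks with a neighbour within 1 kb was 16.2% and 7.41% at the thresholds, against 16.6% and 16.7% on the rest of the arm. It was 23.8% within 500 bp and 39.95% within 5 kb. At the upper quartile the share rests on 8 of 108 peaks. The lowest pileup called was 6 fragments on distal 1p and 5 in the whole list. Whether weaker sites were missed through the depth, the caller's threshold or the list's filter was not tested. The alternatives that need a GRCh37 annotation or sequence were not run.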
